A study of Mus musculus with 2 samples.

Results

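Melanin is made inside melanosomes, and 9 genes whose products build these organelles or work in them were followed in single cells of the mouse retinal pigment epithelium (RPE), the pigmented cell layer behind the photoreceptors. The genes were chosen by symbol, with earlier results of these data known, and all 9 were found once each among the 27998 genes listed for each mouse. RPE cells were taken from 2 male C57BL/6J mice, R1 and R2, whose age the labels give as 4 to 5 weeks and, in the protocol, as postnatal day 36. The mice had no treatment and no altered allele, and RPE sheets from both eyes of a mouse were pooled, disrupted and sorted for living cells (calcein-AM positive and DAPI negative). Transcripts were counted with droplet-based RNA sequencing in which each captured molecule carries a unique molecular identifier (UMI) and is counted once at its 3′ end, so counts of different genes can be set side by side without division by transcript length. Cells with at least 500 genes and at most 5% mitochondrial UMIs were kept and split by the share of their UMIs that came from Ttr, the transthyretin gene, which RPE cells express strongly.

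In R1, 2723 cells had at least 5% of their UMIs from Ttr (high-Ttr cells) and 59 had less than 3% (low-Ttr cells). In R2 there were 2947 high-Ttr and 19 low-Ttr cells, and in neither mouse did a cell lie between 3 and 5%. The median high-Ttr cell held 8751 UMIs in R1 and 8158 in R2, and the median low-Ttr cell 3200 and 3836. Rpe65, the isomerase of the visual cycle, averaged 47.4 and 50.7 UMIs per 10000 in high-Ttr cells of R1 and R2 and 2.71 and 0.622 in low-Ttr cells. The summed level of 7 RPE markers, Rpe65 among them, was 375 and 437 per 10000 in high-Ttr cells against 34.7 and 24.8 in low-Ttr cells, where Best1 had no UMI. With Ttr counted as a further marker, at least 3 were found in all high-Ttr cells and in 58 of 59 and 17 of 19 low-Ttr cells. Ttr had a UMI in every one of these cells, and the low-Ttr cells include some with microglia or fibroblast markers. The count therefore does not settle what the low-Ttr cells are, and they are called here by the rule that selected them. Mitochondrial transcripts took a median of 2.57% and 3.35% of UMIs in low-Ttr cells and 1.29% and 1.25% in high-Ttr cells, and the part of this difference in the results was not tested. The mice shared 12 cell barcodes.

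The proteins form a short pathway. Pmel builds the amyloid fibrils on which melanin is laid down, Mlana supports the processing of Pmel, and Gpnmb is a melanosomal and lysosomal glycoprotein related to Pmel. Tyr (tyrosinase) catalyses the rate-limiting oxidation of tyrosine, and its relatives Dct (dopachrome tautomerase) and Tyrp1 act on later intermediates of eumelanin synthesis. Oca2 and Slc45a2 are melanosomal membrane transport proteins that keep the lumen suited to tyrosinase, and Trpm1 is a cation channel of pigment cells and retinal bipolar cells. In pigment cells many of these genes are targets of the transcription factor MITF, and RPE cells produce most of their melanin before and shortly after birth.

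MITF is known to bind the M-box, here searched as TCATGTG on either strand, and the shorter E-box CATGTG contained in it. Promoter windows from RefSeq (GRCm38.p6, 250 bases before to 50 bases after a transcription start) were used for 6 of the 9 genes, with 2 windows for Trpm1. No window was available for Pmel, Mlana or Slc45a2. The windows of 4 genes that carried TCATGTG are printed below with that of Oca2, which did not, and that of Gpnmb is not printed. Capitals mark TCATGTG or CATGTG, read on either strand, and all windows are written 5′ to 3′ on the strand of the gene.
Tyr, chr7:87493463-87493762, minus strand: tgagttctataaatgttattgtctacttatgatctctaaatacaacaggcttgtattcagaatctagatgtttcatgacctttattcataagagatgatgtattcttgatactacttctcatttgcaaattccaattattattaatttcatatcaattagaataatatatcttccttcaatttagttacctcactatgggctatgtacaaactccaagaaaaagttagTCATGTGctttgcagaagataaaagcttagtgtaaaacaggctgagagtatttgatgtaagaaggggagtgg
Tyrp1, chr4:80833963-80834262, plus strand: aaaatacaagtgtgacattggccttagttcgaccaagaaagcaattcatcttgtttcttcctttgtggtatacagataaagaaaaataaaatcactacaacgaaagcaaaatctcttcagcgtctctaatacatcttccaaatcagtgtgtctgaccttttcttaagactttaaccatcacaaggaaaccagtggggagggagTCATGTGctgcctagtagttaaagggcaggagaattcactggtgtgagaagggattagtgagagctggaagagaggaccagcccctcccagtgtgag
Dct, chr14:118052197-118052496, minus strand: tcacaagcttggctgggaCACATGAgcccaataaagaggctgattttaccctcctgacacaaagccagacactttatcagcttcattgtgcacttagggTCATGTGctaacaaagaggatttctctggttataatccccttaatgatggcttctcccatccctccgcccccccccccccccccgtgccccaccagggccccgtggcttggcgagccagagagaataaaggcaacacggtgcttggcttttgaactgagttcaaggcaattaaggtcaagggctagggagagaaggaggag
Trpm1, chr7:64153585-64153884, plus strand: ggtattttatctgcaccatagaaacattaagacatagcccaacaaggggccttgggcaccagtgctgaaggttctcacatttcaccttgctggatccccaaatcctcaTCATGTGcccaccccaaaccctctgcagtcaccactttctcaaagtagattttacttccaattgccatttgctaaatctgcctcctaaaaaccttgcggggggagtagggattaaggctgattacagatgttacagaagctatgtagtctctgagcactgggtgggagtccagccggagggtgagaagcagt
Oca2, chr7:56239509-56239808, plus strand: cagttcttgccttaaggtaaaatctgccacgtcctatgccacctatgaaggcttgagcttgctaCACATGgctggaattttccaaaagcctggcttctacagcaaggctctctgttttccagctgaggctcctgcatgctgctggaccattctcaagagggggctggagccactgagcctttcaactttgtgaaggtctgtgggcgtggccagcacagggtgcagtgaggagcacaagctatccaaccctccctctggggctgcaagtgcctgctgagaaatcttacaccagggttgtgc

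TCATGTG started 22 bases before the transcription start in Tyr, 47 before it in Tyrp1, 142 before it in Trpm1 and 151 before it in Dct, all on the strand of the gene, and Dct held a further copy on the opposite strand from 232 bases before the start. The heptamer was in 3.77% of 32851 promoter windows of the same length. In Oca2 only the shorter CATGTG was found, 186 bases upstream on the opposite strand, and 14.2% of all windows held that hexamer. The window of Gpnmb held neither. The palindromic CACGTG, which 7.15% of windows held, was found only in the second Trpm1 window. These are matches of letters and not measured binding sites. A relation between motif and change in level was not tested. In the comparison given further on, Dct, Tyrp1 and Trpm1, with TCATGTG, were called higher (log2 fold changes 2.97, 2.47 and 3.87). Tyr, also with TCATGTG, was not called (0.26). Oca2, with CATGTG only, was called lower (-1.76), and Gpnmb, with neither, was called higher (3.21).

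The genes lie on 7 chromosomes (GRCm38). Tyr (chr7:87424771-87493512, minus strand), Oca2 (chr7:56239760-56536518, plus) and Trpm1 (chr7:64153835-64269775, plus) share chromosome 7, and the others are Dct (chr14:118012790-118052244, minus), Tyrp1 (chr4:80834123-80851719, plus), Pmel (chr10:128704195-128720238, plus), Mlana (chr19:29697824-29708634, plus), Gpnmb (chr6:49036546-49070929, plus) and Slc45a2 (chr15:11000721-11029233, plus). Trpm1 contains the gene of the microRNA Mir211 on its own strand, and Pmel overlaps the ends of its neighbours Cdk2 and Dgka on the other strand.

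Every one of the 9 genes had UMIs in high-Ttr cells of both mice. Dct was highest, with a mean of 9.35 UMIs per 10000 in R1 and 6.37 in R2, and UMIs in 94.4% and 88.3% of cells. Tyr followed with 2.42 and 1.89, Mlana with 2.16 and 1.47, Tyrp1 with 1.62 and 1.19, and Gpnmb with 1.53 and 0.846, and the range over mice of each of these overlapped that of the next. Trpm1 averaged 0.894 and 0.453, Oca2 0.801 and 0.725, and Pmel 0.598 and 0.211, where the range of Trpm1 overlapped those of its neighbours but Pmel stayed below Oca2. Slc45a2 was lowest with 0.136 and 0.124, and 8.19% and 6.58% of cells had a UMI of it. Together the 9 genes took 0.179% of all UMIs of high-Ttr cells in R1 and 0.127% in R2.

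In low-Ttr cells the same genes took 2.39% and 1.60% of all UMIs. Dct alone averaged 124 UMIs per 10000 in R1 and 98.0 in R2, with medians over cells of 138 and 102 and quartiles of 58.8 to 178 and 6.43 to 171. Mlana came next with means of 54.3 and 43.1. Gpnmb (17.9 and 17.4), Trpm1 (18.3 and 9.74), Tyrp1 (13.2 and 12.9) and Pmel (6.74 and 11.3) followed. The range of Trpm1 over the mice overlapped those of the other three, whereas Gpnmb lay above Tyrp1 and Tyrp1 above Pmel in both mice. Tyr averaged 6.10 and 3.27, below Pmel in each mouse. Oca2 was found with 8 UMIs in R1 and 3 in R2, and Slc45a2 with 2 UMIs in R1 and 0 in R2, which for 19 cells allows a share of cells with a UMI of up to 15.8%.

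**Figure D1:**
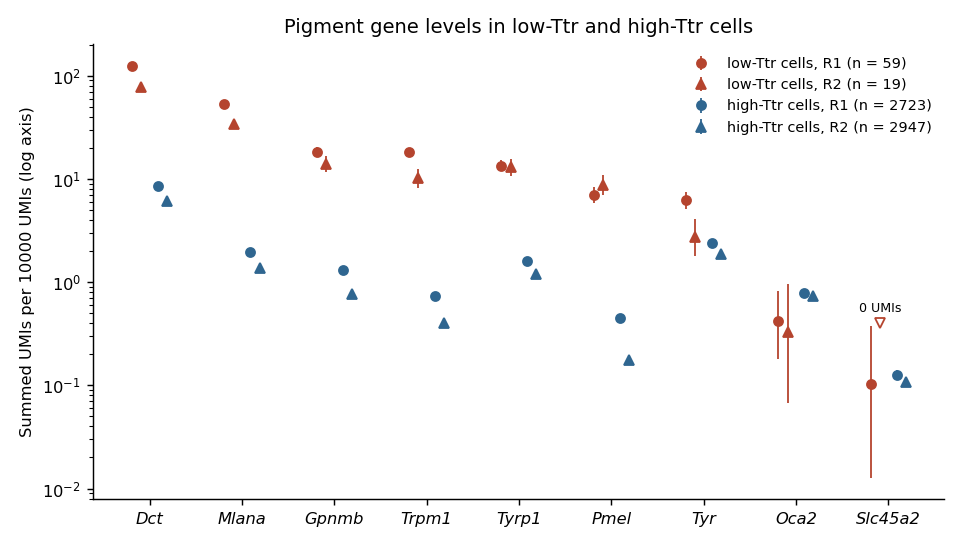
Summed UMIs of each gene per 10000 summed UMIs (log axis) in low-Ttr (red) and high-Ttr (blue) cells of R1 (circles) and R2 (triangles). Bars are exact 95% Poisson intervals, which cover counting error only, and the open triangle is the upper limit for 0 UMIs. For the 6 genes from Dct to Pmel, and for Tyr, the low-Ttr values of both mice lie above both high-Ttr values. The values of Tyr lie closer together, and the intervals of Oca2 and Slc45a2 in low-Ttr cells are wide.

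To compare the classes over mice and not over cells, UMIs were summed per mouse and class and the 4 sums were tested with edgeR's quasi-likelihood test with the mouse as a block. Of 11576 genes tested, 489 (4.22%) were higher and 789 (6.82%) lower in low-Ttr cells after Benjamini-Hochberg adjustment at 0.05. All 9 pigment genes passed the filter on low counts, and 6 of them were higher and 1 was lower. Their median log2 fold change was 2.97, whereas that of all genes tested was -0.39. The genes were chosen with earlier results known, and the paper lists the 6 called higher as raised in its cluster C1 of these data. The count of 6 and the median are therefore no independent evidence. The scaling has to be kept in mind for small changes, since without TMM scaling the median of all genes was 0.37 and the calls became 1089 higher and 381 lower (74.1% of calls higher against 38.3%), and DESeq2 called 504 higher and 430 lower (54.0%). Because there are only 2 mice, 1 residual degree of freedom was left, and the p-values lean on the spread shared across genes.

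The structural genes of the melanosome were raised in low-Ttr cells. Pmel was 15.5 times higher in R1 (95% interval of the ratio of sums from counting error 12.9 to 18.6) and 50.2 times higher in R2 (39.1 to 63.6). The edgeR log2 fold change was 4.00 ± 0.35 (SE, here and below derived from the F statistic of the test) with an edgeR adjusted p of 1.45e-27. Mlana differed by nearly the same ratio in both mice, 27.0 (25.2 to 28.8) in R1 and 25.1 (22.3 to 28.2) in R2, with a log2 fold change of 3.93 ± 0.33 and an adjusted p of 2.10e-29. Gpnmb was 13.8 times higher in R1 and 18.4 times in R2, with a log2 fold change of 3.21 ± 0.32 and an adjusted p of 5.12e-22. For each of these genes both low-Ttr levels lay above both high-Ttr levels. In bulk sums, more cells with transcripts and more transcripts per cell cannot be told apart, and shares of cells are given further on.

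Within the tyrosinase family the enzymes of the later steps rose and tyrosinase itself did not pass the test. Dct was 14.3 times higher in R1 (13.7 to 14.9) and 12.6 times in R2 (11.6 to 13.5), with a log2 fold change of 2.97 ± 0.34 and an adjusted p of 4.63e-16. Tyrp1 was 8.32 times higher in R1 and 10.8 times in R2, with a log2 fold change of 2.47 ± 0.31 and an adjusted p of 1.18e-13. Tyr was counted with 119 UMIs in low-Ttr cells of R1 and 25 UMIs for R2, which gave ratios of sums of 2.59 (2.14 to 3.11) and 1.48 (0.958 to 2.19). Its log2 fold change was 0.26 ± 0.33 with an adjusted p of 0.761, and without TMM scaling it was 1.05 with an adjusted p of 0.00297. The call for Tyr therefore depended on the scaling, and its sign with TMM on the mouse, at 0.77 with R1 alone and -0.31 with R2 alone, values that allow no test.

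The membrane proteins split. Trpm1 was 24.5 times higher in R1 (21.8 to 27.5) and 25.3 times in R2 (20.2 to 31.3), with a log2 fold change of 3.87 ± 0.33 and an adjusted p of 1.42e-29. Oca2 fell by 1.76 ± 0.58 on the log2 scale with an adjusted p of 0.0241, from 8 and 3 UMIs in the low-Ttr sums of R1 and R2. That call was lost in 5 of 12 alternatives, with adjusted p-values from 0.0523 when low-Ttr cells were held below 1% to 0.343 without TMM scaling, and the ratios of sums, 0.528 (0.228 to 1.04) and 0.448 (0.0923 to 1.31), had counting intervals that included 1. Slc45a2 did not pass the test (log2 fold change -1.57 ± 1.35, adjusted p of 0.622), and 2 and 0 UMIs could not show a difference at this depth.

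**Figure D2:**
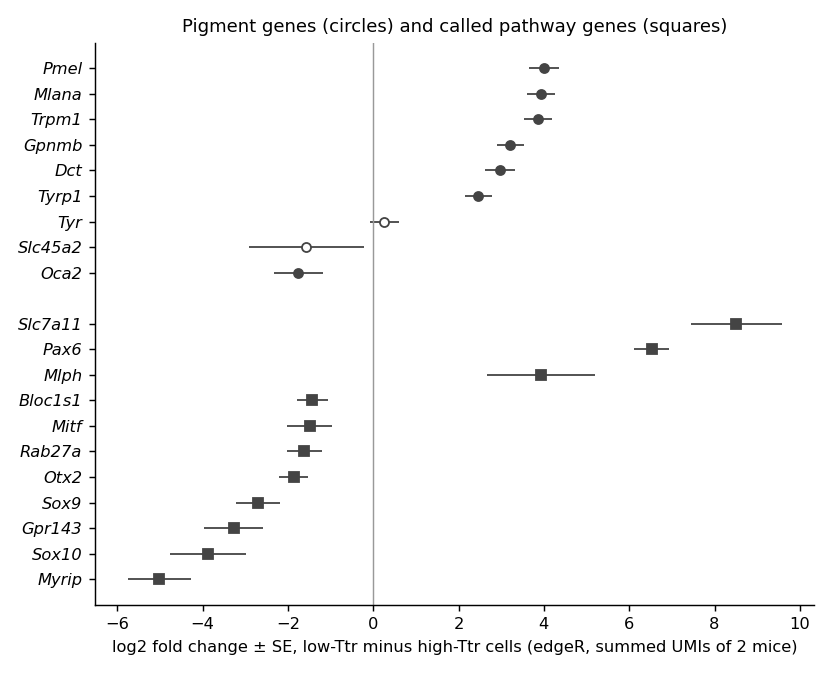
Log2 fold change ± SE of low-Ttr against high-Ttr cells for the 9 pigment genes (circles) and the 11 called genes of the wider pigment pathway (squares), from edgeR on UMIs summed per mouse. Filled symbols passed the adjusted threshold of 0.05, and the fitted values of Sox10 and Myrip rest on 2 and 0 UMIs in low-Ttr cells. Pmel, Mlana and Trpm1 lie near 4, Tyr near 0, and Oca2 at -1.76.

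The proportions among the 9 genes do not depend on scaling. Dct made up 47.8% and 48.3% of their UMIs in high-Ttr cells of R1 and R2 and 51.4% and 48.3% in low-Ttr cells. Mlana made up 10.9% and 10.6% in high-Ttr cells and 22.1% and 21.2% in low-Ttr cells. Tyr made up 13.3% and 14.5% in high-Ttr cells but 2.59% and 1.71% in low-Ttr cells, and Oca2 4.39% and 5.77% against 0.174% and 0.205%. Trpm1 went from 4.10% and 3.13% to 7.56% and 6.30%. Pmel went from 2.50% and 1.37% to 2.92% and 5.48%, and Gpnmb from 7.32% and 5.99% to 7.60% and 8.76%. Tyrp1, although called higher in level, went from 8.98% and 9.41% to 5.62% and 8.08%. Slc45a2 went from 0.699% and 0.850% to 0.0436% and 0%, on 2 and 0 UMIs in low-Ttr cells. In each of these except Dct, where the ranges touched, both mice of a class lay on the same side of both mice of the other class. The mixture of pigment transcripts in low-Ttr cells was thus poorer in Tyr, Oca2, Tyrp1 and Slc45a2. It was richer in Mlana and Trpm1, while the share of Dct differed by less than 4 percentage points. Pmel and Gpnmb also had higher shares, but in R1 only slightly, 2.92% against 2.50% and 7.60% against 7.32%. These shares carry no counting interval, so small differences cannot be told from counting error. With 2 mice a class such an order is weak evidence, and how often other genes show it was not measured.

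Shares of cells were compared after each cell had been thinned to 2000 UMIs, a depth that all cells reached. Trpm1 was then found in 84.7% of low-Ttr and 12.3% of high-Ttr cells of R1, and Mlana in 86.4% and 29.2%. Tyrp1 was found in 81.4% against 24.8%, Gpnmb in 72.9% against 20.6%, and Pmel in 25.4% against 6.13%. The smallest gap among the genes called higher was that of Dct, with 88.1% against 72.3%. Its mean was 24.7 against 1.87 molecules per 2000 UMIs, and that of Mlana 11.0 against 0.433. A share of cells with a UMI rises with the mean at this depth. Gaps in shares therefore do not tell more cells with transcripts from more transcripts per cell. In R2, with 19 low-Ttr cells, Trpm1 was found in 63.2% against 7.13% and Mlana in 68.4% against 21.5%. Tyrp1 was found there in 63.2% against 19.2%, Gpnmb in 68.4% against 13.3%, and Pmel in 36.8% against 2.48%. Dct was found in 73.7% against 62.1% of R2 cells, with 19.5 against 1.26 molecules per 2000 UMIs. Tyr was found in 66.1% against 35.3% of cells in R1 and in 57.9% against 27.5% in R2, and Oca2 in 6.78% against 12.9% in R1. Before thinning, Tyr was found in 72.9% of low-Ttr and 73.7% of high-Ttr cells of R1, where the latter held more UMIs per cell.

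Low-Ttr cells were not uniform. By at least 3 markers, 2 cells of R1 and 1 of R2 were marked as microglia and 3 cells of R1 and 2 of R2 as fibroblasts, and over these 8 cells the pigment genes had 1 UMI of Tyrp1 and 1 of Dct, both in 1 microglia-marked cell of R1. This is the background measured in cells that should not make pigment, at median depths of 2692.5 to 3204 UMIs. Of the remaining 54 cells of R1 and 16 of R2, 44 and 11 had UMIs of both Pax6, a transcription factor of the developing eye, and Dkk3, a secreted glycoprotein of the Dickkopf family. In these, Dct averaged 140.0 and 101.1 UMIs per 10000 and Mlana 60.9 and 48.2, and in the remaining 10 and 5 cells Dct averaged 114 and 150 and Mlana 52.5 and 57.7. UMIs of all of Mlana, Dct, Tyrp1, Gpnmb and Trpm1 were found in 41 of the 54 and 12 of the 16 cells. Without the microglia- and fibroblast-marked cells, an alternative chosen after the values had been seen for levels, shares and correlations, the same 6 genes were called higher and the call for Oca2 was lost (adjusted p of 0.0861).

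**Figure D3:**
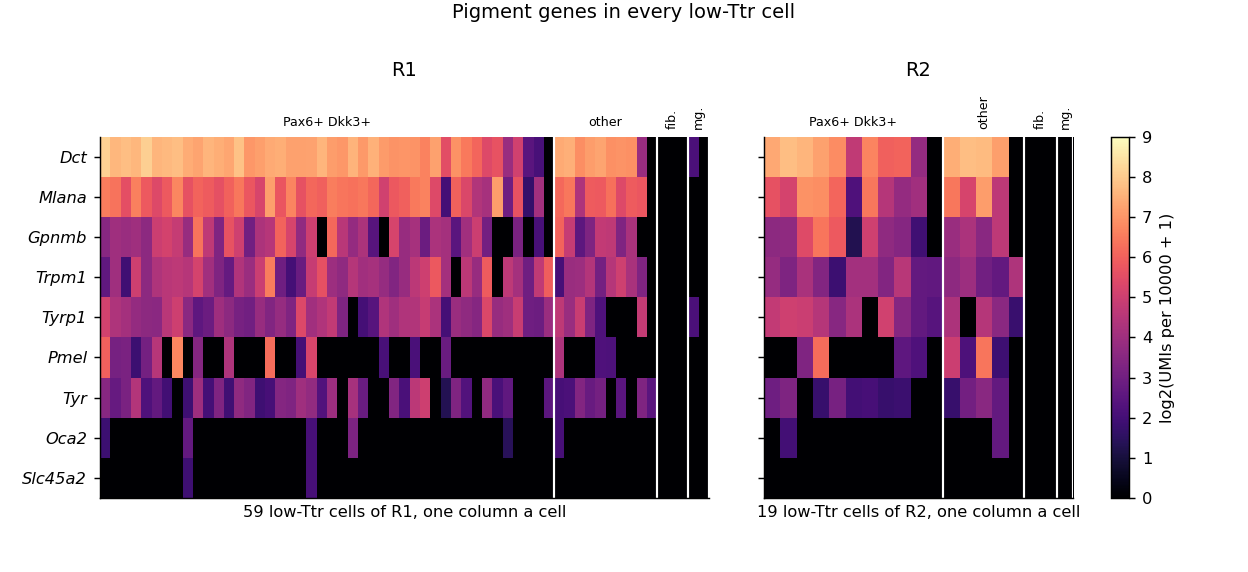
Level of the 9 genes, as log2(UMIs per 10000 + 1) by colour, in each of the 59 low-Ttr cells of R1 and the 19 of R2, one column a cell, grouped into cells with UMIs of Pax6 and Dkk3, other cells, and cells with fibroblast (fib.) or microglia (mg.) markers. Dct and Mlana fill most columns, Pmel is at 0 in most cells and high in a few, and marked cells are nearly empty.

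Markers of choroidal melanocytes, the neural crest-derived pigment cells next to the RPE, had few UMIs in low-Ttr cells, 24 in R1 and 2 in R2. No low-Ttr cell of either mouse had UMIs of 3 or more of the 6 markers (Pax3, Sox10, Kit, Ednrb, Mc1r and Mlph). Pax3 and Mc1r had no UMI in any low-Ttr cell, and Kit and Ednrb had some in R1 only. The summed level was 1.38 per 10000 in R1 (0 to 36.2 over cells) and 0.258 in R2 (0 to 2.69), against 0.830 and 0.726 in high-Ttr cells. It was thus higher than in high-Ttr cells in R1 only, where the 1 cell at 36.2 weighs on the mean. These sums join genes that differed in opposite directions. Mlph, called higher in low-Ttr cells, made up 13 of 24 UMIs there in R1 and 2 of 2 in R2. Sox10, called lower, made up 1589 of 1955 and 1680 of 1968 UMIs in high-Ttr cells. Ednrb was left out by the filter on low counts. Without that filter its log2 fold change was 5.43, with an edgeR adjusted p of 0.197. Markers of C1-like pigment cells (Pax6, Dkk3, Aldoc, Zic1, Zic4, Penk and Map1b) summed to 67.9 and 67.1 per 10000 in low-Ttr cells and to 1.12 and 0.862 in high-Ttr cells, and at least 3 of them were found in 52 of 59 and 16 of 19 low-Ttr cells. This list was compiled with earlier results of these cells known, so it is no independent evidence of what they are. Of 8 rod markers none had a UMI in a low-Ttr cell.

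Pmel behaved apart from the other pigment genes within low-Ttr cells. Among the cells with at least 10 Mlana UMIs, 43 in R1 and 10 in R2, Pmel had 0 UMIs in 26 and 4, between 1 and 4 in 10 and 3, and at least 5 in 7 and 3. The unmarked cells with at least 5 Pmel UMIs, 7 in R1 and 3 in R2, held 82.8% and 86.3% of all Pmel UMIs of the class, and the highest cells had 30 and 32. The size of the ratio between the classes for Pmel therefore rests mostly on 7 and 3 cells, whereas Dct, Mlana and Trpm1 were found in at least 84.7% of R1 and at least 63.2% of R2 low-Ttr cells after thinning.

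A few low-Ttr cells had little or no Dct. In R1, 4 unmarked cells had at most 2 Dct UMIs, and in R2 there were 2. All 6 had no Pmel UMI but 3 to 48 UMIs of Dkk3, and 5 of them had 3 to 13 UMIs of Trpm1. The deepest of them, with 9332 UMIs in R2, had no UMI of Dct, Mlana or Gpnmb beside 5 of Trpm1, 4 of Tyrp1 and 10 of Pax6.

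In high-Ttr cells Pmel was again concentrated in few cells. The 1% of cells with the most Pmel UMIs, 27 in R1 and 29 in R2, held 37.6% and 47.4% of its UMIs. For Dct the top 1% held 5.68% and 6.08%, for Tyr 6.53% and 6.66%, for Mlana 7.75% and 9.70%, and for Trpm1 16.8% and 24.2%. For Slc45a2, the rarest of the genes, it held 24.8% and 32.8%. Since few UMIs spread over many cells give high shares of this kind, the variance over the mean (Fano factor) at 2000 UMIs per cell was set beside that of all genes found in at least 3 thinned cells. It was 3.89 and 3.40 for Pmel, above 99.7% of 11994 genes in R1 and 99.8% of 11904 in R2, and 1.22 and 1.41 for Slc45a2, above 65.0% and 82.2%. For Dct it was 2.53 in R1 and 1.66 in R2, above 99.2% and 95.7% of genes, and for Gpnmb and Trpm1 it was 1.79 in R1, above 97.6%. In R2 it was 1.51 for Gpnmb, above 91.3% of genes, and 1.61 for Trpm1, above 94.9%. Mlana lay above 95.9% of genes in R1 and 88.9% in R2, Tyr above 89.2% and 76.2%, Tyrp1 above 86.9% and 59.1%, and Oca2 above 73.0% and 55.5%. The genes were not matched by mean level. The rank of Dct, with means of 1.87 and 1.26 per 2000 UMIs, therefore cannot show a spread beyond that of genes of like level.

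**Figure D4:**
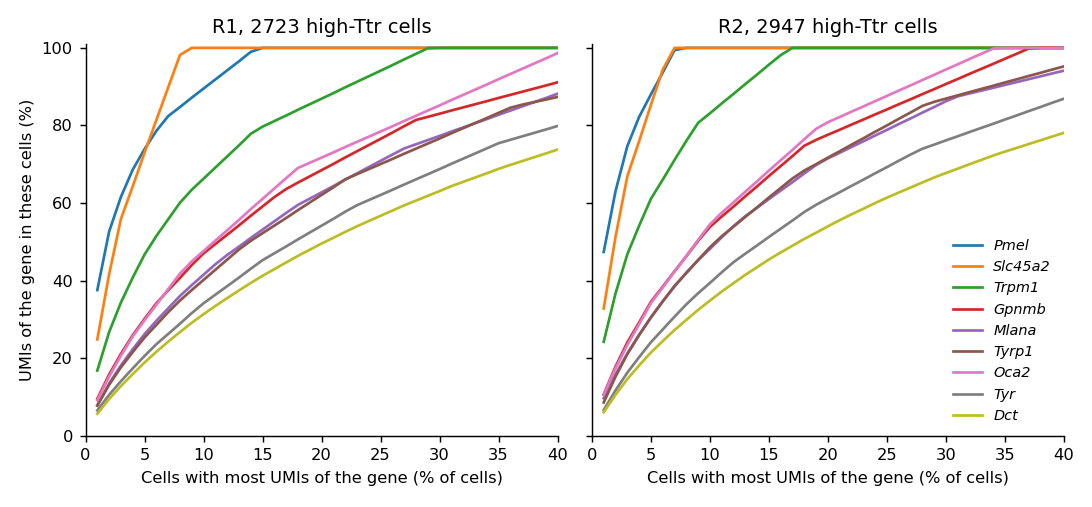
Percent of a gene's UMIs (vertical) held by the given percent of high-Ttr cells with the most UMIs of that gene (horizontal) in R1 and R2. Pmel rises most steeply at the left, with 37.6% and 47.4% of its UMIs in the top 1% of cells, and Dct most slowly, with 5.68% and 6.08%.

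High-Ttr cells with at least 10 Pmel UMIs, 21 in R1 and 7 in R2, were set beside those with none, a split chosen after the values had been seen and given without a test. Dct averaged 32.7 against 8.42 UMIs per 10000 in R1 and 31.3 against 6.18 in R2, Mlana 8.56 against 1.90 and 8.26 against 1.41, Gpnmb 7.39 against 1.26 and 7.96 against 0.793, and Trpm1 7.24 against 0.614 and 6.22 against 0.388. Tyr differed less than these, with 3.19 against 2.37 and 3.34 against 1.89, but it was not alone in this. Tyrp1 averaged 4.26 against 1.47 in R1 but 1.99 against 1.17 in R2. Oca2 averaged 1.31 against 0.767 in R1 and was not higher in R2, at 0.648 against 0.729. Slc45a2 averaged 0.805 against 0.117 and 0.845 against 0.119. The same cells had a median of 10.6% and 13.6% of UMIs from Ttr, close to the 11.3% and 13.0% of cells without Pmel, and Rpe65 averaged 31.1 against 48.1 and 42.9 against 50.9. Of these, 1 of the 21 and none of the 7 was scored as a doublet, and Dkk3 was found in 11 of 21 and 2 of 7 of them against 8.63% and 5.00% of cells without Pmel. Pax6 was found in none of the 21 and none of the 7, against 2.66% and 1.86% of cells without Pmel.

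The pigment genes varied together within high-Ttr cells, weakly, and more so in R1. Over the 36 pairs of genes the Pearson r of log2(UMIs per 10000 + 1) across cells had a median of 0.113 in R1 (range 0.019 to 0.400, 2723 cells) and 0.061 in R2 (0.0088 to 0.190, 2947 cells). Cells of a mouse share a library, and depth differs between them, so these are descriptions. The highest value in both mice was that of Pmel and Trpm1, 0.400 and 0.190. The 15 pairs among Pmel, Mlana, Tyrp1, Dct, Gpnmb and Trpm1, grouped after the values had been seen, had medians of 0.248 and 0.122, and the other 21 pairs, which involve Tyr, Oca2 or Slc45a2, had medians of 0.065 and 0.031. Thinned to 2000 UMIs per cell, the median over all pairs was 0.063 and 0.024, while the pair of Pmel and Trpm1 kept 0.317 in R1 and 0.173 in R2.

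**Figure D5:**
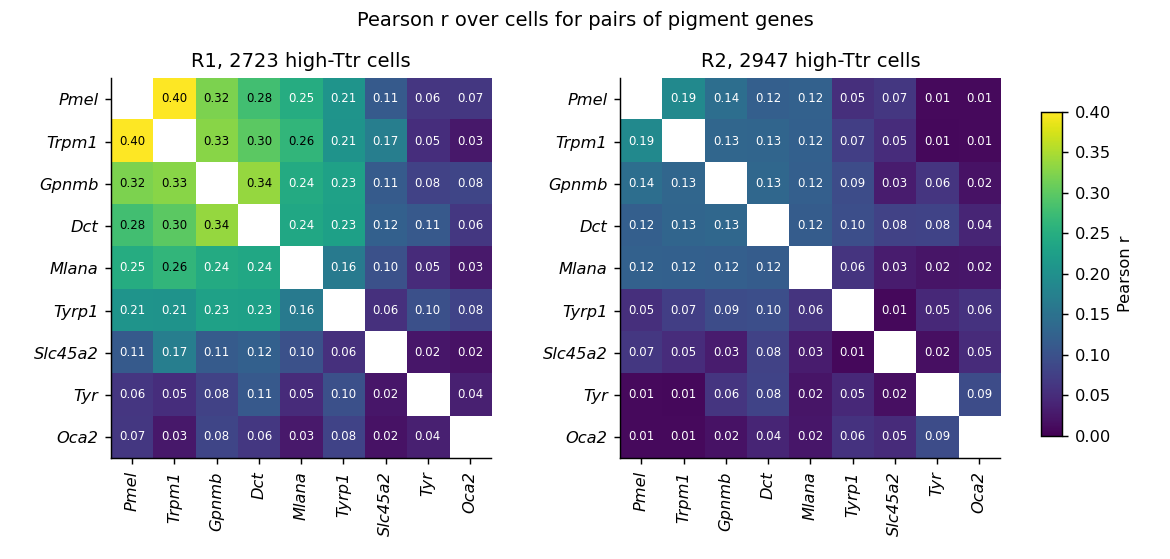
Pearson r over high-Ttr cells between each pair of the 9 genes on the log2(UMIs per 10000 + 1) scale, in R1 and R2. Values range from 0.019 to 0.400 in R1 and from 0.0088 to 0.190 in R2, and in both mice the pair of Pmel and Trpm1 is highest and rows of Tyr and Oca2 are low.

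In low-Ttr cells the median over pairs was 0.250 in R1 and, over the 28 pairs without Slc45a2, 0.493 in R2. Without microglia- and fibroblast-marked cells, which had almost no pigment transcripts, the medians were 0.126 and 0.207. Mlana and Dct had the highest Pearson r, with 0.914 and 0.950 over all low-Ttr cells and 0.834 and 0.912 without the marked cells. Cells with little or no Dct and Mlana weigh on these values. On ranks (Spearman), no pair of pigment genes exceeded 0.592 in R1 and 0.848 in R2 over all low-Ttr cells. Gpnmb and Dct followed in R1 with 0.641 without marked cells. Pmel and Trpm1, the highest pair in high-Ttr cells, had 0.153 and 0.283 over all low-Ttr cells.

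Among 1970 genes found in at least 10% of high-Ttr cells of both mice, Cox8b, a subunit of cytochrome c oxidase, was most like the summed pigment genes after thinning, with r of 0.322 in R1 and 0.175 in R2. Aldoc, Igfbp5, mt-Nd4, mt-Nd1, Wfikkn2, App, Cryab, Sult1c1 and Myrf followed, with r in R2 between 0.0539 and 0.0843. In low-Ttr cells the 10 most similar genes among 2158 were Chchd10, Ndufa4, mt-Nd4, Cox4i1, Slc2a1, Aldoa, Mgst1, Aldoc, mt-Nd1 and mt-Cytb, with r from 0.583 to 0.931. Without the marked cells, among 1909 genes, Ndufa4 (0.639 and 0.620), Mgst1 and Cox4i1 of these stayed among the first 10 and the other 7 did not, and Krt18, a keratin, ranked second.

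Between the mice, Pmel, Trpm1 and Gpnmb differed most in high-Ttr cells and were higher in R1. The ratio of R1 to R2, from summed UMIs, was 2.57 for Pmel (95% counting interval 2.31 to 2.85), 1.84 for Trpm1, 1.72 for Gpnmb, 1.44 for Mlana, 1.39 for Dct, 1.34 for Tyrp1, 1.29 for Tyr, 1.16 for Slc45a2 and 1.07 for Oca2. Over 9110 genes with at least 200 UMIs the median ratio was 1.07, and the middle 90% lay between 0.838 and 1.44. Pmel, Trpm1 and Gpnmb lay above that range, Mlana at its upper limit and the other 5 genes within it. With a single library for each mouse, mouse and library cannot be told apart. In R1 the level of Pmel at 2000 UMIs per cell was 0.166 and 0.170 in the shallower quartiles of cells by depth and 0.0352 in the deepest quartile, and Trpm1 went from 0.251 to 0.0734, whereas Tyr (0.480 and 0.460) and Oca2 (0.160 and 0.131) differed little between these quartiles. In R2 the same values were 0.0407 and 0.0285 for Pmel and 0.0991 and 0.0706 for Trpm1. The part of depth in the difference between mice was not tested.

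Of 45 further genes of the pigment pathway, 40 could be tested, and 3 were higher and 8 lower in low-Ttr cells, with a median log2 fold change of -0.94 against -0.39 for all genes. Of all genes tested 4.22% were called higher and 6.82% lower, and without TMM scaling 5 pathway genes were called in each direction with a median of -0.19. Tfec, Lef1, Mc1r, Ednrb and Mreg were left out by the filter on low counts. Among regulators, Pax6 rose by a log2 fold change of 6.53 ± 0.42 (edgeR adjusted p of 2.76e-52), from 122 and 80 UMIs in all high-Ttr cells of R1 and R2 to 135 and 42 in the far fewer low-Ttr cells. Mitf itself was lower at the limit of the threshold, at -1.49 ± 0.53 and an adjusted p of 0.0467, with 9 and 5 UMIs in low-Ttr cells, and this call was lost in 9 of the 12 alternatives. Otx2, a homeodomain factor of RPE identity, was lower at -1.87 ± 0.35, and Sox9, a SOX factor expressed in RPE cells, at -2.70 ± 0.52. For Sox9 the ratios of sums were 0.140 (0.0381 to 0.359) in R1 and 0.486 (0.178 to 1.06) in R2. Sox10, a SOX factor of neural crest-derived cells, passed the test as lower, with 2 and 0 low-Ttr UMIs against 1589 and 1680. Its level in high-Ttr cells was 5.96 times that in low-Ttr cells of R1 (95% counting interval 1.65 to 49.2). In R2 it was 1.73-fold higher with the 0 set to 3 counts for the library, and the exact 95% lower limit was 1.40.

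Among receptors and membrane proteins, Slc7a11, the cystine/glutamate exchanger that influences pheomelanin synthesis, had 24 and 11 UMIs in low-Ttr cells and 3 and 8 in high-Ttr cells, which gave ratios of sums of 1067 (324 to 5535) in R1 and 446 (163 to 1277) in R2 and a log2 fold change of 8.51 ± 1.07. Gpr143, a melanosomal receptor that limits melanosome size, was called lower with 1 and 3 low-Ttr UMIs, and its level in high-Ttr cells was 16.3 times (2.93 to 646) and 2.55 times (0.872 to 12.4) that in low-Ttr cells. Slc24a5, a melanosomal exchanger, and Cd63, a tetraspanin needed for the sorting of Pmel, did not pass the test, at -0.26 ± 0.34 and -0.22 ± 0.32 respectively. Without TMM scaling both signs turned, and Cd63 was called higher at 0.56 with an adjusted p of 0.0444.

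Of 5 tested genes of melanosome transport, 1 was called higher and 2 lower. Mlph, the adaptor that links Rab27a to myosin Va in skin melanocytes, was higher at 3.93 ± 1.27 from 13 and 2 low-Ttr UMIs, with ratios of sums of 32.7 (16.4 to 60.8) and 16.6 (1.95 to 64.2). Myrip, which links Rab27a to myosin VIIa in RPE cells, passed the test as lower, with 2 and 0 low-Ttr UMIs against 3710 and 3279 in high-Ttr cells, and its level in high-Ttr cells was 13.9 times that in low-Ttr cells of R1 (3.85 to 115) and at least 3.37-fold higher in R2 with the same floor. Rab27a was lower at -1.62 ± 0.41, with ratios of sums of 0.389 (0.222 to 0.633) in R1 and 0.835 (0.444 to 1.43) in R2. Myo7a did not pass the test at -2.01 ± 0.75 and an adjusted p of 0.0607. Of 18 tested sorting genes (AP-3, BLOC-1 and HPS complexes among them) 1 was called, a share near the 6.82% of all genes called lower. This was Bloc1s1, at -1.43 ± 0.36, and it overlaps Rdh5, a retinol dehydrogenase gene, on the same strand, so reads of these genes may not be separable. Calls for Bloc1s1 and Rab27a were lost without TMM scaling and with only the Pax6 and Dkk3 cells, and that for Mlph in the latter.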

How the data were processed

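UMI counts of single RPE cells from 2 mice, as deposited, were whole numbers without normalization. Per the labels' processing notes the authors used bcl2fastq 2.20.0.422 and Cell Ranger 1.2.0 with GRCm38 (mm10), and filtering for doublets, ambient RNA or cell quality came later. The version of the 10x chemistry differs between labels and paper. The mice held 2844 and 2994 deposited cells with 26034378 and 29732969 UMIs, of which 2782 and 2966 cells passed (at least 500 genes, at most 5% mitochondrial UMIs). The labels name separate replicates, which the paper describes as separate mice.

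The pigment genes, the pathway list, the marker lists and the classes by Ttr share were chosen with earlier results of these data known. Besides the 9 pigment genes, the text names every called pathway gene (up to 20 by fold change), Ttr and Rpe65 as checks, and the 10 genes most similar to the summed pigment genes in each class, where similarity was the lower of the 2 mice's Pearson r on counts thinned to 2000 UMIs. Other genes are named as markers of a subset or as examples chosen after their values were seen.

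UMIs were summed per mouse and class, giving sums of 25660266 and 29542337 UMIs for high-Ttr and 192400 and 91115 for low-Ttr cells, and tested in R 4.3.3 with edgeR 4.0.16 (TMM, filterByExpr, glmQLFit and glmQLFTest, Benjamini-Hochberg adjustment, threshold 0.05). Both classes come from the same animal, so the sums are paired by mouse and the mouse entered as a block. The edgeR test gives no SE, so the SE of a log2 fold change was taken as its absolute value divided by the square root of its F statistic. DESeq2 1.42.0 was an alternative. Shares carry exact Clopper-Pearson intervals, UMI sums exact Poisson intervals and ratios exact conditional binomial intervals, all at 95% and for counting error only. For Sox10 and Myrip in R2 a ratio was also formed with 3 counts in place of 0. Correlations used log2(UMIs per 10000 + 1) in Python 3.11.15 with numpy 2.4.6 and scipy 1.17.1. Doublets were kept in the main analysis, and in an alternative the 4% of cells with the highest score against artificial doublets (111 and 119 cells, all high-Ttr) were removed. In another, 10% of each library was subtracted as an ambient profile. Authors' cell annotations were not used here.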

Additional observations from a re-analysis of the deposited data

How the results depend on the processing

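The 6 genes called higher kept direction and call in all 12 alternatives tested, and doublet removal, ambient subtraction, leaving out Ttr and the choice of high-Ttr limit moved no count of calls by more than 1.5 times. Without the replicate block, 924 genes were higher and 1339 lower, and no call for a pigment gene changed. Without TMM scaling the counts were 1089 and 381, with 0 pigment genes lower and 5 pathway genes in each direction. DESeq2 gave 430 lower genes. With only Pax6 and Dkk3 cells 275 genes were higher and 497 lower, and 5 pathway genes were lower. The call for Oca2 was lost, leaving 0 pigment genes lower, with DESeq2, without TMM, with low-Ttr below 1%, without marked cells and with only Pax6 and Dkk3 cells, with log2 fold changes of -2.13 to -0.996 over all alternatives. Leaving out a mouse left no degrees of freedom for a test, and Tyr then ranged from -0.31 to 0.77. A value of Slc45a2 without R1 could not be had because its low-Ttr count was 0. Thinning lowered the median correlation in high-Ttr cells to 0.0634 in R1 and 0.0236 in R2, and leaving out marked cells, chosen after seeing the data, lowered that of low-Ttr cells in R2 to 0.207. The causes of these shifts were not tested. With 59 and 19 low-Ttr cells and 192400 and 91115 UMIs, depth limits Oca2, Slc45a2 and weakly expressed pathway genes most.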

Other observations

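Within high-Ttr cells the pigment genes did not follow the share of Ttr in the same way in both mice. From the lowest to the highest quartile of cells by Ttr share, the mean Dct count at 2000 UMIs per cell went from 2.14 to 1.68 in R1 and from 1.22 to 1.29 in R2, Tyr from 0.517 to 0.468 and from 0.400 to 0.350, Trpm1 from 0.229 to 0.191 and from 0.0828 to 0.110, and Oca2 from 0.166 to 0.145 and from 0.161 to 0.121. Tyr and Oca2 were thus lower in the top quartile in both mice, and Dct and Trpm1 lower in R1 and higher in R2, without a test. The 2000 UMIs include those of Ttr, so cells with a larger Ttr share have fewer UMIs left for other genes. These means carry no counting interval, so small differences cannot be told from counting error.

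Genes that varied against the summed pigment genes in high-Ttr cells, picked after their values were seen, included Igfbp2, a secreted binding protein of insulin-like growth factors, with r of -0.165 in R1 and -0.099 in R2, and Rgr, an opsin of the RPE, with -0.134 and -0.089. In low-Ttr cells without microglia- and fibroblast-marked cells, Gpx3, an extracellular glutathione peroxidase, had -0.677 and -0.903 over 54 and 16 cells.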
